A study of Mus musculus with 15 samples.

Results

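Amino acids and short peptides cross the membranes of intestinal epithelial cells through solute carriers. The genes described here are the rows of the deposited count tables whose symbol marks them as members of the solute carrier families Slc1, Slc3, Slc6, Slc7, Slc15, Slc36, Slc38 or Slc43. The rule matched 72 of 78298 rows. Of these, 68 were transporter genes or subunits of transporters and 4 were genes that only share the name of a transporter on the opposite strand (Slc6a19os, Slc7a6os, Slc36a1os and Slc36a3os). By family, the 68 comprised 7 Slc1, 2 Slc3, 21 Slc6, 15 Slc7, 5 Slc15, 4 Slc36, 11 Slc38 and 3 Slc43 genes.

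In the gut, free amino acids and di- and tripeptides enter absorptive enterocytes across the apical brush border, where surface peptidases release them from larger peptides, and leave across the basolateral membrane. Several of these carriers work as pairs of a light chain, which transports, and a heavy chain, which brings it to the cell surface. Other members supply every dividing cell with amino acids, sit on lysosomes, or take up neurotransmitters, creatine and taurine.

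The RNA came from mouse small intestinal organoids, three-dimensional cultures of crypt epithelium, and 5 conditions were sequenced with 3 libraries each. All 5 conditions carried a lentiviral transgene driven by the L30 promoter and a puromycin resistance gene. Halo-NLS organoids, the controls, carried L30prom_V5-Halo-GDGAGLIN-NLS_IRES_Puro, a nuclear HaloTag without SOX9. SOX9-Halo_budding and SOX9-mEGFP_budding organoids carried L30prom_Sox9-GDGAGLIN-Halo-V5_IRES_Puro and L30prom_Sox9-GDGAGLIN-mEGFP-V5_IRES_Puro and had the branched shape of normal organoids. SOX9-Halo_spheroid and SOX9-mEGFP_spheroid organoids had grown round after longer culture. The spheroid lines carried a further histone transgene, which was L30prom_H2B-GDGAGLIN-mEGFP-V5_IRES_Zeo with SOX9-Halo and L30prom_H2B-GDGAGLIN-mScarletI-V5_IRES_Neo with SOX9-mEGFP. Shape, time in culture and the further transgene therefore cannot be told apart in any comparison of spheroids with budding organoids, and each condition rests on a single transduced line. The 3 libraries of a condition are described as biological triplicates but not tied to separate animals, so p-values measure the spread between these libraries only.

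The libraries held between 28062722 and 40559766 counts on genes, of which the 72 rows took 0.217% to 0.343%. Sox9, the gene that was overexpressed, was at 15.3, 22.9 and 9.1 CPM (counts scaled to a common library total) in Halo-NLS. It was at 339, 330.3 and 193 CPM in SOX9-mEGFP_budding, 39.8, 314 and 204 in SOX9-Halo_budding, 260.0, 504 and 705 in SOX9-mEGFP_spheroid and 314, 442 and 441 in SOX9-Halo_spheroid, so every library with the transgene was above the controls, and SOX9-Halo_budding replicate 1 was the lowest of these 12. Leaving that library out, the comparison of SOX9-Halo_budding with Halo-NLS had 2 members called up and none down, beside 223 up and 67 down of 18160 genes. Halo-NLS replicate 3 stood apart in the number of genes with at least 1 count, 40375 against 24214 to 34646 in the other 14 libraries. The epithelial markers Epcam and Cdh1 were present in every library, at a summed 1288 to 2081 CPM. Epcam was called down in SOX9-Halo_spheroid, at 440 to 483 CPM against 919 to 1058 in Halo-NLS. Cdh1 was not called there, at 830 to 904 CPM against 510 to 819. Markers of fibroblasts and immune cells were low, with at most 3.00 CPM summed over 5 fibroblast genes and at most 2.29 CPM over 4 immune genes. S100b, from the list for glia and neurons, was higher, at 20.5, 18.9 and 34.0 CPM in SOX9-Halo_budding and 37.1, 24.2 and 11.6 in SOX9-mEGFP_spheroid against 1.83, 1.33 and 0.45 in Halo-NLS, and was called up in both.

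Levels are given as CPM, scaled between libraries by the trimmed mean of M values, in the order of replicates 1, 2 and 3. Comparisons used the quasi-likelihood test of edgeR over all 15 libraries, with Benjamini-Hochberg adjustment over 17560 genes, and a log2 fold change is followed by its standard error (SE). A call up or down required an adjusted p no higher than 0.01, a change of 2-fold or more, and a normalised count averaging 10 or more. Of the 72 rows, 45 passed the filter on low counts and were tested (43 transporter genes, with Slc7a6os and Slc6a19os). Among the 25 transporter genes that were not tested, no library held more than 20 counts, and 11 had at most 3 counts in every library. Halo-NLS replicate 3 held the highest count of 13 of these 25. Of the 45 tested rows, 26 were called in at least 1 of the 8 pairwise comparisons.

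Compared per kilobase of exon, the most abundant members over all libraries were Slc3a2 (mean 67.2 CPM per kb), Slc7a5 (55.1), Slc1a5 (40.9), Slc6a8 (29.1) and Slc6a6 (23.4). Slc3a2 is the heavy chain shared by several exchangers, Slc7a5 carries large neutral amino acids, Slc1a5 carries glutamine and other neutral amino acids, Slc6a8 carries creatine and Slc6a6 carries taurine. Summed over the 14 members listed as apical transporters of gut or kidney epithelium, the level was 123 ± 34.4 CPM per kb (SD, n = 3) in Halo-NLS. The same sum was 82.5 ± 30.9 in SOX9-mEGFP_budding and 100.4 ± 16.1 in SOX9-Halo_budding. It was 38.3 ± 1.32 in SOX9-mEGFP_spheroid and 26.7 ± 3.89 in SOX9-Halo_spheroid, and the spheroid libraries did not overlap with any budding or control library. The 12 members listed for general uptake summed to 122 ± 17.8 CPM per kb in Halo-NLS, 134 ± 15.7 in SOX9-mEGFP_budding, 96.1 ± 21.4 in SOX9-Halo_budding, 217 ± 57.3 in SOX9-mEGFP_spheroid and 208 ± 23.2 in SOX9-Halo_spheroid. All 6 spheroid libraries thus lay below the other 9 in the apical sum and above them in the sum for general uptake. In SOX9-Halo_spheroid the latter rested on Slc7a5. Without it, the other 11 members summed to 94.9 ± 13.2 CPM per kb in Halo-NLS, 116 ± 11.5 in SOX9-mEGFP_budding, 82.9 ± 17.2 in SOX9-Halo_budding, 133 ± 17.6 in SOX9-mEGFP_spheroid and 74.1 ± 4.65 in SOX9-Halo_spheroid. This second sum was added after the values were seen. SOX9-Halo_spheroid then had the lowest mean and lay below all 3 controls. SOX9-mEGFP_spheroid still had the highest mean, and its 119 to 153 CPM per kb lay above all 3 controls (80.2 to 106). Its range overlapped with that of SOX9-mEGFP_budding (103 to 123). The sum over all 72 rows ranged from 322 to 543 CPM per kb, and each spheroid condition overlapped with Halo-NLS.

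**Figure D1:**
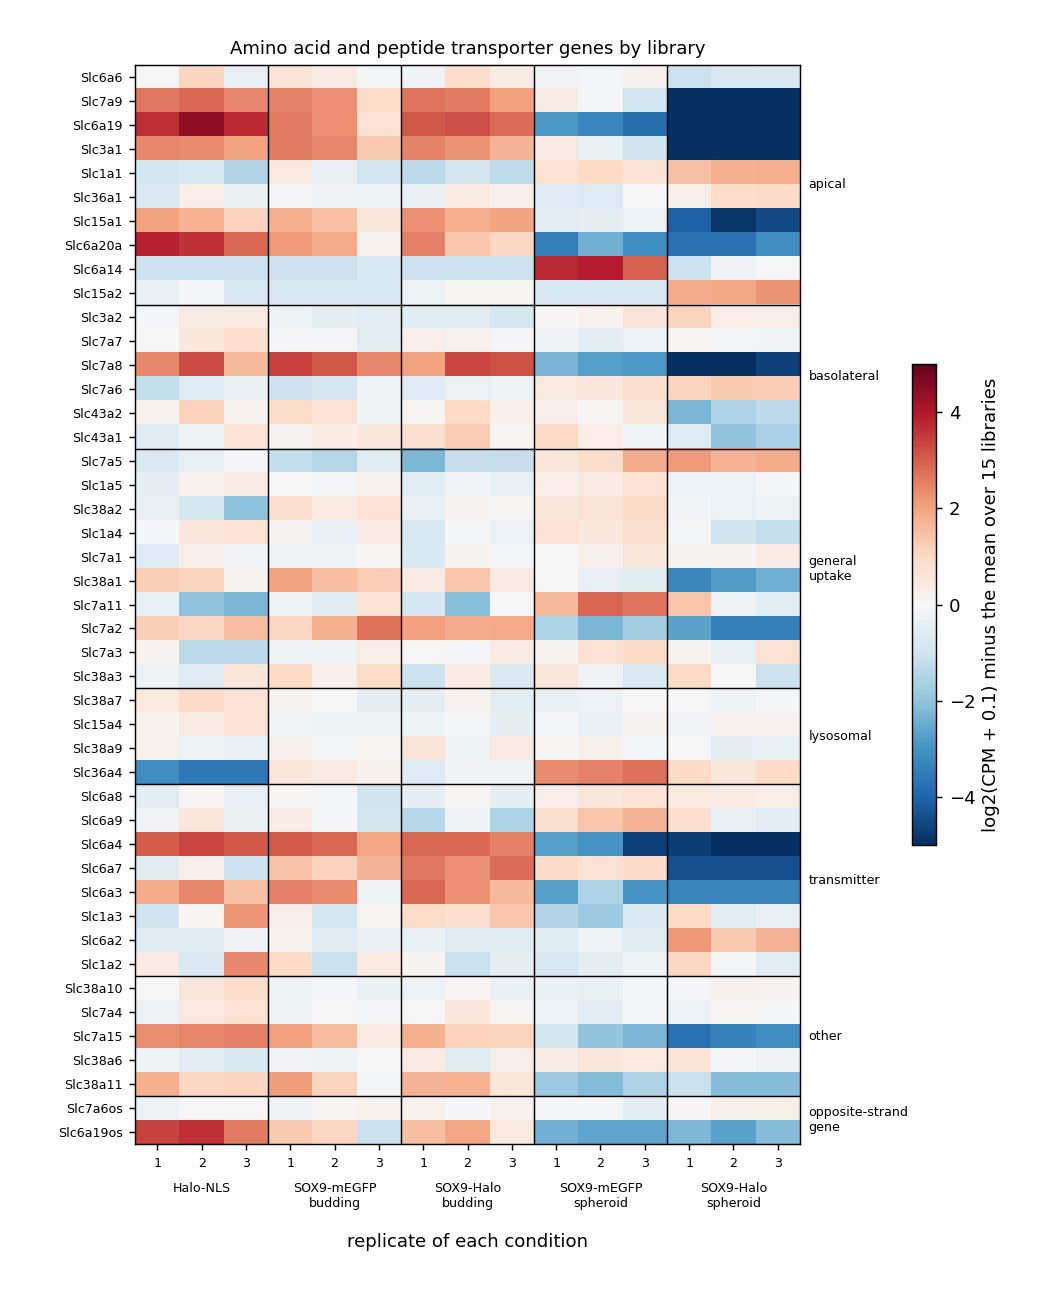
Heat map of the 45 tested rows (vertical axis, grouped by role) in the 15 libraries (horizontal axis, 3 replicates for each condition). Colour is log2(CPM + 0.1) minus the mean of the row over all libraries, so red is above and blue is below the row's own mean. Slc7a9, Slc3a1, Slc6a19, Slc7a8 and Slc6a4 are dark blue in SOX9-Halo_spheroid, whereas Slc7a5, Slc7a6 and Slc1a1 are red in both spheroid conditions.

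Budding organoids, which carried the SOX9 transgene without the round shape, were first compared with Halo-NLS. These are separately transduced lines, and the study orders the conditions by time in culture, with Halo-NLS first. SOX9, line and time in culture therefore cannot be told apart here. Few members differed. In SOX9-mEGFP_budding, 3 of the 45 tested rows were called up (Slc6a7, Slc36a4 and Slc38a2), against 1.99% of all genes tested, and 2 were called down (Slc6a19 and Slc6a19os), against 0.763%. In SOX9-Halo_budding, 2 rows were called up (Slc6a7 and Slc36a4), against 2.49%, and none was called down, against 1.26%. As shares of the 45 rows, these were 6.67% up and 4.44% down in SOX9-mEGFP_budding and 4.44% up in SOX9-Halo_budding. The median log2 fold change of the 45 rows was -0.02 in SOX9-mEGFP_budding and -0.07 in SOX9-Halo_budding, beside 0.03 and 0.01 over all genes tested. Leaving out SOX9-mEGFP_budding replicate 1 or 3 left 1 row called up in SOX9-mEGFP_budding, Slc36a4, beside 221 of 18319 and 195 of 18132 genes. Of the 15 fits that left out 1 library, 10 had no row called down there, and the 15 called 72 to 345 of all genes down. Both comparisons use the same control libraries.

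The spheroids differed in many more members. Against Halo-NLS, SOX9-mEGFP_spheroid had 8 rows called up, against a background of 15.3%, and 13 called down, against 12.1%. SOX9-Halo_spheroid had 4 rows called up, against 13.6%, and 17 called down, against 15.3%. As shares of the 45 tested rows, these were 17.8% up and 28.9% down in SOX9-mEGFP_spheroid and 8.89% up and 37.8% down in SOX9-Halo_spheroid. The share called up was near or below the background in both, and the share called down was above it in both. The median log2 fold change of the 45 rows was -0.28 in SOX9-mEGFP_spheroid and -0.48 in SOX9-Halo_spheroid, beside 0.03 and -0.01 over all genes tested. The change from budding to spheroid within a line was similar in makeup. In the SOX9-mEGFP line, 4 rows were called up, against 8.55%, and 13 down, against 7.88%. In the SOX9-Halo line, 5 were called up, against 10.5%, and 17 down, against 14.7%. The rows called down were thus 28.9% and 37.8% of the 45, again above the background.

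Both spheroid conditions have their own budding counterpart, and all 13 rows called down from budding to spheroid in the SOX9-mEGFP line were also among the 17 called down in the SOX9-Halo line. They were Slc3a1, Slc6a3, Slc6a4, Slc6a19, Slc6a19os, Slc6a20a, Slc7a2, Slc7a8, Slc7a9, Slc7a15, Slc15a1, Slc38a1 and Slc38a11. The 4 further rows called down in the SOX9-Halo line were Slc6a6, Slc6a7, Slc43a1 and Slc43a2. Slc7a5, Slc7a6 and Slc36a4 were called up in both lines, Slc6a14 in the SOX9-mEGFP line and Slc1a1 and Slc3a2 in the SOX9-Halo line.

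The apical transporters of absorptive cells included many of the members that fell. Of the 14 members on this list, 10 were tested, and 5 were called down in SOX9-mEGFP_spheroid, against 12.1% of all genes, and 6 in SOX9-Halo_spheroid, against 15.3%, relative to Halo-NLS (Slc3a1, Slc6a19, Slc6a20a, Slc7a9 and Slc15a1 in both, with Slc6a6 in addition in SOX9-Halo_spheroid). The median log2 fold change of the 10 was -2.31 in SOX9-mEGFP_spheroid, beside 0.03 over all genes tested. In SOX9-Halo_spheroid it was -4.66, or -3.95 with genes at or below 3 counts per library set to the bound that 3 counts allow, beside -0.01 over all genes tested.

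Slc6a19, the main brush border carrier of neutral amino acids (chr13:73827860-73852984, minus strand, GRCm39), had 154, 257 and 157 CPM in Halo-NLS. It had 70.4, 58.4 and 20.2 CPM in SOX9-mEGFP_budding and 102, 111 and 82.3 in SOX9-Halo_budding. All 6 of these budding values lay below all 3 control values. The fall passed the test in SOX9-mEGFP_budding (log2 fold change -1.93 ± 0.39, adjusted p = 0.0073) but not in SOX9-Halo_budding (log2 fold change -0.94 ± 0.38, adjusted p = 0.089). The former call was lost whenever a library other than Halo-NLS replicate 1, SOX9-mEGFP_budding replicate 1, SOX9-Halo_budding replicate 2 or SOX9-mEGFP_spheroid replicate 3 was left out, with log2 fold changes between -2.05 and -1.56 and adjusted p between 0.01 and 0.036. The difference between both budding lines at this gene did not pass the test (log2 fold change 0.99 ± 0.38, adjusted p = 0.39).

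In spheroids, Slc6a19 dropped to 1.48, 1.13 and 0.766 CPM with SOX9-mEGFP and 0.176, 0.0846 and 0.241 CPM with SOX9-Halo. Neither range touched that of any other condition. Relative to Halo-NLS the log2 fold change was -7.38 ± 0.51, adjusted p = 7.7e-08 in SOX9-mEGFP_spheroid and -10.11 ± 0.59, adjusted p = 7.7e-09 in SOX9-Halo_spheroid. The opposite-strand gene Slc6a19os followed, from 8.22, 10.0 and 4.83 CPM in Halo-NLS to at most 0.0805 CPM in any spheroid library. Its call in SOX9-mEGFP_budding (log2 fold change -2.66 ± 0.54, adjusted p = 0.0079) was lost in 12 of the 15 fits that left out 1 library, with adjusted p up to 0.033. The exons of both genes do not overlap, but their loci do and counting ignored strand, so unspliced Slc6a19 RNA and Slc6a19os cannot be told apart.

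Slc6a20a, a carrier of proline and other imino acids, was likewise highest in Halo-NLS. It had 19.2, 16.8 and 9.66 CPM in Halo-NLS, 5.72, 4.7 and 1.42 in SOX9-mEGFP_budding, 7.51, 3.39 and 2.65 in SOX9-Halo_budding and 0.0264, 0.149 and 0.0568 in SOX9-mEGFP_spheroid. In SOX9-Halo_spheroid, 2 libraries had no count and the other had 0.0537 CPM, so that the counts pooled over the condition were 769.7-fold (95% counting interval 213 to 6363) lower than in Halo-NLS. This interval rests on 2 counts in SOX9-Halo_spheroid and, like those given with other pooled counts, covers counting error only. The budding values were again below all controls, with adjusted p = 0.031 in SOX9-mEGFP_budding and 0.036 in SOX9-Halo_budding, short of the threshold.

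Slc3a1 and Slc7a9 encode the heavy and the light chain of the same apical exchanger, which takes up cystine and basic amino acids and is defective in cystinuria. Slc3a1 (chr17:85335804-85374794, plus strand) had 109.5, 106 and 82.4 CPM in Halo-NLS, 126, 112 and 51.5 in SOX9-mEGFP_budding and 115, 97.0 and 67.7 in SOX9-Halo_budding. Slc7a9 (chr7:35147668-35165461, plus strand) had 90.3, 106 and 78.8 CPM in Halo-NLS, 79.8, 69.2 and 27.1 in SOX9-mEGFP_budding and 92.5, 84.4 and 59.6 in SOX9-Halo_budding. Budding and control libraries overlapped for both genes, and no difference between them passed the test.

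Both chains fell in both spheroid conditions, and by far more with SOX9-Halo. In SOX9-mEGFP_spheroid, Slc3a1 was at 28.2, 16.3 and 10.2 CPM (log2 fold change -2.40 ± 0.40, adjusted p = 0.00029, relative to SOX9-mEGFP_budding). Slc7a9 was at 19.0, 13.5 and 7.41 CPM there (log2 fold change -2.14 ± 0.41, adjusted p = 0.00098). In SOX9-Halo_spheroid, Slc3a1 was at 0.247, 0.0846 and 0.241 CPM (log2 fold change -8.92 ± 0.57, adjusted p = 1.9e-08, relative to SOX9-Halo_budding), and Slc7a9 at 0, 0.0282 and 0.0805 CPM, 2017-fold (95% counting interval 787 to 7403) lower than in SOX9-Halo_budding. Where both chains could be measured, their ratio varied little within a condition but shifted between conditions. Per kilobase, Slc3a1 was 0.543 to 0.663 of Slc7a9 in Halo-NLS, 0.867 to 1.04 in SOX9-mEGFP_budding, 0.621 to 0.677 in SOX9-Halo_budding and 0.662 to 0.812 in SOX9-mEGFP_spheroid. Of the exon length of Slc3a1, 26.8% overlaps other genes, where reads are not assigned to either.

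The 250 bases before the RefSeq transcription start of both genes are printed here because heavy and light chain both fell in the spheroids. They are in GRCm38.p6, the build of the RefSeq table (the counts use GRCm39). Of the 72 rows, 53 matched this table by symbol. Capitals mark matches on either strand to TTTATNG, the core bound by CDX factors, or to CAAAGTNCA, the core bound by HNF4, both factors being regulators of intestinal genes. Both motifs occur in the window of Slc3a1, with their first bases 73 and 39 bases before the start, and neither occurs in that of Slc7a9. The first motif was found in 9.81% and the second in 1.19% of 32851 windows of this length, and in 2 and 1 of the 74 windows of these 72 rows. A match shows letters, not binding.
Slc3a1 (chr17:85028097-85028346, plus strand): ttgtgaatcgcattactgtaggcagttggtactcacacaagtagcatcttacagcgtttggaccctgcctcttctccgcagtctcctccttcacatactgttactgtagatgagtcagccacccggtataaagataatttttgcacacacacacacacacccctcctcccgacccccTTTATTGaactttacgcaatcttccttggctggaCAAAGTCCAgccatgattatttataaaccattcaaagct
Slc7a9 (chr7:35448842-35449091, plus strand): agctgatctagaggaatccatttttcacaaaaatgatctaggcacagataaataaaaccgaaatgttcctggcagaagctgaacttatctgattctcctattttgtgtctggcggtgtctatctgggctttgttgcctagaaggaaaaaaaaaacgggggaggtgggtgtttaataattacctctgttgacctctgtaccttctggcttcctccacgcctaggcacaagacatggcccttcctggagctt

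Slc15a1, the brush border carrier of di- and tripeptides (chr14:121697033-121742845, minus strand), had 11.5, 9.61 and 6.25 CPM in Halo-NLS, 9.74, 7.83 and 4.08 in SOX9-mEGFP_budding and 13.9, 10.0 and 11.1 in SOX9-Halo_budding. It had 1.82, 2.0 and 2.24 CPM in SOX9-mEGFP_spheroid (log2 fold change -1.83 ± 0.37, adjusted p = 0.0015, relative to SOX9-mEGFP_budding). SOX9-Halo_spheroid held 0.0706, 0 and 0.0268 CPM, 399-fold (95% counting interval 136 to 1935) lower than SOX9-Halo_budding. Its RNA was thus reduced in SOX9-mEGFP_spheroid and at the floor of detection in SOX9-Halo_spheroid. Slc15a2, the related carrier better known from kidney, appeared in SOX9-Halo_spheroid at 0.529, 0.564 and 0.724 CPM, at most 27 counts in a library, and its mean over all libraries was too low for a call.

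Not every apical transporter fell. Slc1a1, which takes up glutamate and aspartate, rose in both spheroid conditions relative to Halo-NLS. It had 12.7, 13.6 and 8.35 CPM in Halo-NLS, 33.8, 18.1 and 12.5 in SOX9-mEGFP_budding and 9.46, 12.7 and 9.77 in SOX9-Halo_budding. It had 40.6, 48.2 and 38.1 CPM in SOX9-mEGFP_spheroid (log2 fold change 1.87 ± 0.32, adjusted p = 0.00024, relative to Halo-NLS) and 65.7, 81.2 and 84.4 CPM in SOX9-Halo_spheroid (log2 fold change 2.74 ± 0.33, adjusted p = 6.3e-06). All 6 spheroid values exceeded all 9 others. Slc6a14, a carrier of neutral and basic amino acids, had no count in Halo-NLS or SOX9-Halo_budding and a single count over the 3 SOX9-mEGFP_budding libraries. It reached 2.78, 3.1 and 1.5 CPM in SOX9-mEGFP_spheroid, at least 22.3-fold above Halo-NLS with 3 counts per library as the floor, against 0, 0.0846 and 0.107 CPM in SOX9-Halo_spheroid (log2 fold change -5.10 ± 0.64, adjusted p = 0.00015 between the spheroids).

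The taurine carrier Slc6a6 was lowest in SOX9-Halo_spheroid, at 125, 151 and 155 CPM, against 268, 548 and 198 in Halo-NLS and 231, 481 and 339.8 in SOX9-Halo_budding. The fall was called against both (log2 fold change -1.24 ± 0.34, adjusted p = 0.0079, and log2 fold change -1.29 ± 0.34, adjusted p = 0.0069). Without Halo-NLS replicate 2, the highest control, the former was -0.69 with adjusted p = 0.071. Both were close to the threshold, since the call against Halo-NLS also ended in 8 other fits that left out 1 library (SOX9-mEGFP_budding replicate 1 or 2, SOX9-Halo_budding replicate 3, SOX9-mEGFP_spheroid replicate 1 or 2, or any SOX9-Halo_spheroid library, adjusted p 0.01 to 0.036). The call against SOX9-Halo_budding ended without its replicate 2 or 3 or any SOX9-Halo_spheroid library (adjusted p 0.016 to 0.038). Slc36a1, a proton-coupled carrier of small amino acids, was not called in any comparison, with 11.6, 24.2 and 15.4 CPM in Halo-NLS and 23.8, 36.5 and 37.3 CPM in SOX9-Halo_spheroid (log2 fold change 0.93 ± 0.31, adjusted p = 0.022).

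**Figure D2:**
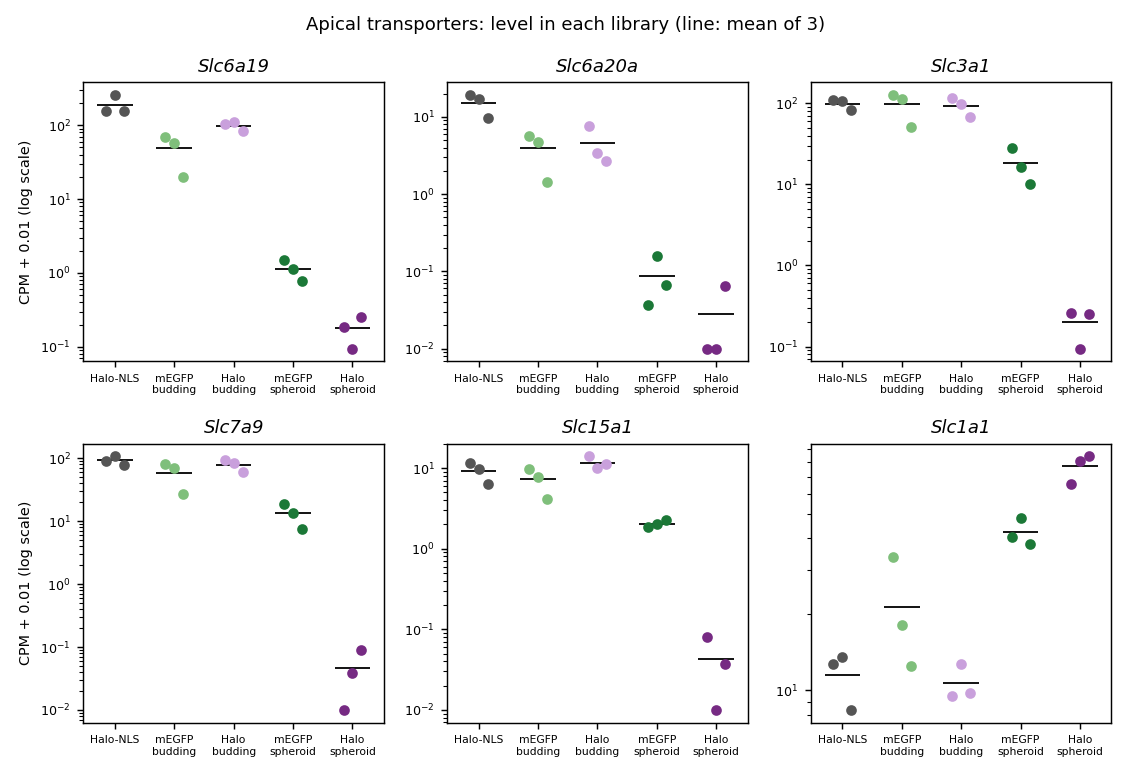
Level of 6 apical transporters in each library (points, CPM + 0.01 on a log scale) by condition, with the mean of 3 libraries as a line. Slc6a19 and Slc6a20a step down from Halo-NLS to budding to spheroid, Slc3a1, Slc7a9 and Slc15a1 hold in budding organoids and nearly vanish in SOX9-Halo_spheroid, and Slc1a1 is highest in the spheroids.

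Genes that act with these carriers were examined in the same libraries. Of 9 surface peptidases and partner proteins, 8 were tested. In SOX9-mEGFP_spheroid, 3 were called down against Halo-NLS (Enpep, Mme and Ggt1), and in SOX9-Halo_spheroid 7 were (the same 3 with Dpp4, Mep1a, Mep1b and Slc16a10). Over all genes, 12.1% and 15.3% were called down. None of the 8 was called in either budding condition, beside 1.99% of all genes up and 0.763% down in SOX9-mEGFP_budding and 2.49% and 1.26% in SOX9-Halo_budding. Ggt1 was nonetheless below all controls (149 to 181 CPM) in every budding library, at 21.1 to 113 CPM with SOX9-mEGFP and 22.0 to 60.2 with SOX9-Halo. Mep1a was above all controls (29.3 to 36.7 CPM), at 41.1 to 86.3 CPM with SOX9-mEGFP and 81.0 to 100.1 with SOX9-Halo. Anpep, an aminopeptidase of the same membrane, was not called against Halo-NLS, with 354, 813 and 342 CPM in Halo-NLS, 148, 171 and 299 in SOX9-mEGFP_spheroid (log2 fold change -1.29 ± 0.38, adjusted p = 0.012) and 596, 602 and 705 in SOX9-Halo_spheroid. All SOX9-mEGFP_spheroid values lay below the controls, and Anpep was called higher in SOX9-Halo_spheroid than in SOX9-mEGFP_spheroid (log2 fold change 1.62 ± 0.38, adjusted p = 0.0057).

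Markers of enterocytes fell in the same libraries, with 6 of 7 called down in SOX9-mEGFP_spheroid against Halo-NLS, beside 12.1% of all genes. Summed over 7 enterocyte markers (Alpi, Sis, Fabp1, Fabp2, Apoa1, Apoa4 and Vil1), the level was 6484 to 10820.0 CPM in Halo-NLS, 1928 to 7362 in SOX9-mEGFP_budding and 4247 to 8198 in SOX9-Halo_budding. It was 980.0 to 1353 CPM in SOX9-mEGFP_spheroid and 102 to 141 CPM in SOX9-Halo_spheroid. In the latter all 7 were called down against Halo-NLS, beside 15.3% of all genes. None of the 7 was at or below 3 counts throughout any condition. In budding organoids none was called against Halo-NLS, but Alpi, Apoa1 and Apoa4 lay below all controls in every budding library. Alpi, for example, was at 533 to 1025 CPM in Halo-NLS, 78.1 to 266 in SOX9-mEGFP_budding and 249 to 359 in SOX9-Halo_budding. Sis, Fabp1, Fabp2 and Vil1 overlapped with the controls in both budding lines. Fewer enterocytes and less transporter RNA per enterocyte cannot be told apart in these bulk libraries, and the part of cell makeup in the transporter changes was not tested.

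At the basolateral side, both carriers of large neutral amino acids that share the heavy chain Slc3a2 moved in opposite directions. Slc7a8, the carrier of differentiated epithelia (chr14:54959630-55019649, minus strand), had 56.7, 104 and 32.9 CPM in Halo-NLS, 115, 93.0 and 58.8 in SOX9-mEGFP_budding and 43.7, 110.0 and 97.4 in SOX9-Halo_budding. It had 2.04, 1.49 and 1.36 CPM in SOX9-mEGFP_spheroid (log2 fold change -5.76 ± 0.60, adjusted p = 4.6e-06, relative to SOX9-mEGFP_budding) and 0, 0.141 and 0.322 CPM in SOX9-Halo_spheroid (log2 fold change -8.96 ± 0.73, adjusted p = 1.7e-07, relative to SOX9-Halo_budding). All 6 spheroid values lay far below the other 9.

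Slc7a5, the carrier of growing cells (chr8:122607884-122634433, minus strand), had 82.8, 105 and 128 CPM in Halo-NLS, 58.2, 50.3 and 89.9 in SOX9-mEGFP_budding and 28.7, 61.0 and 61.6 in SOX9-Halo_budding. It had 211, 255 and 495 CPM in SOX9-mEGFP_spheroid and 597, 456 and 494 CPM in SOX9-Halo_spheroid, above every budding and control library. The log2 fold change from budding to spheroid was 2.28 ± 0.36, adjusted p = 0.00022 in the SOX9-mEGFP line and 3.35 ± 0.38, adjusted p = 4.3e-06 in the SOX9-Halo line. Relative to Halo-NLS it was 1.61 ± 0.36, adjusted p = 0.0019 in SOX9-mEGFP_spheroid, or 1.14 with adjusted p = 0.014 without its replicate 3, and 2.29 ± 0.36, adjusted p = 0.0001 in SOX9-Halo_spheroid. Per kilobase, Slc7a5 was 2.44 to 9.35 times the level of Slc7a8 in Halo-NLS, 1.22 to 3.68 times in SOX9-mEGFP_budding and 1.33 to 1.58 times in SOX9-Halo_budding. The ratio was 249 to 875 in SOX9-mEGFP_spheroid and 3689 to 7779 in the 2 SOX9-Halo_spheroid libraries with more than 3 counts of Slc7a8.

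The shared heavy chain itself, Slc3a2, varied less. It had 273, 376 and 411 CPM in Halo-NLS, 243, 209 and 196 in SOX9-mEGFP_budding, 191, 191 and 159 in SOX9-Halo_budding, 301, 330.2 and 458 in SOX9-mEGFP_spheroid and 632, 371 and 362 in SOX9-Halo_spheroid. Only the rise from SOX9-Halo_budding to SOX9-Halo_spheroid was called (log2 fold change 1.33 ± 0.25, adjusted p = 0.00045), and no difference between a spheroid condition and Halo-NLS passed the test. Slc7a5 was 0.339 to 0.377 of Slc3a2 per kilobase in Halo-NLS and 1.15 to 1.66 in SOX9-Halo_spheroid. Of the exon length of Slc3a2, 15.9% overlaps other genes.

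Of the exchangers of basic for neutral amino acids, Slc7a7, the intestinal and renal form, was not called in any comparison, with 95.8, 137 and 167 CPM in Halo-NLS and 101, 89.2 and 85.7 CPM in SOX9-Halo_spheroid. Its relative Slc7a6, found in many tissues, rose from 11.5, 16.6 and 21.4 CPM in Halo-NLS to 37.4, 39.2 and 47.3 in SOX9-mEGFP_spheroid (log2 fold change 1.33 ± 0.26, adjusted p = 0.00088) and 58.7, 66.8 and 65.9 in SOX9-Halo_spheroid (log2 fold change 1.95 ± 0.27, adjusted p = 2.6e-05). Per kilobase, Slc7a7 stood at 8.41 to 8.95 times Slc7a6 in Halo-NLS, and at 1.77 to 2.35 times in SOX9-mEGFP_spheroid and 1.40 to 1.84 times in SOX9-Halo_spheroid. The rise from SOX9-mEGFP_budding to SOX9-mEGFP_spheroid (log2 fold change 1.26 ± 0.26, adjusted p = 0.0019) was lost without SOX9-mEGFP_budding replicate 1 or 2 or SOX9-mEGFP_spheroid replicate 3, with log2 fold changes of 1.09 to 1.16 and adjusted p of 0.012 to 0.015.

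Slc43a2, an exit route for large neutral amino acids, was called down in SOX9-Halo_spheroid. It had 52.1, 102 and 52.5 CPM in Halo-NLS, 55.4, 48.5 and 65.8 in SOX9-mEGFP_spheroid and 9.25, 15.5 and 18.4 in SOX9-Halo_spheroid, and the direct comparison of both spheroids was called (log2 fold change -1.97 ± 0.37, adjusted p = 0.001). The test of the difference between the lines in the budding-to-spheroid change gave -1.92 ± 0.51 (adjusted p = 0.021), short of the threshold. The related Slc43a1 had at most 29 counts in any library.

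**Figure D3:**
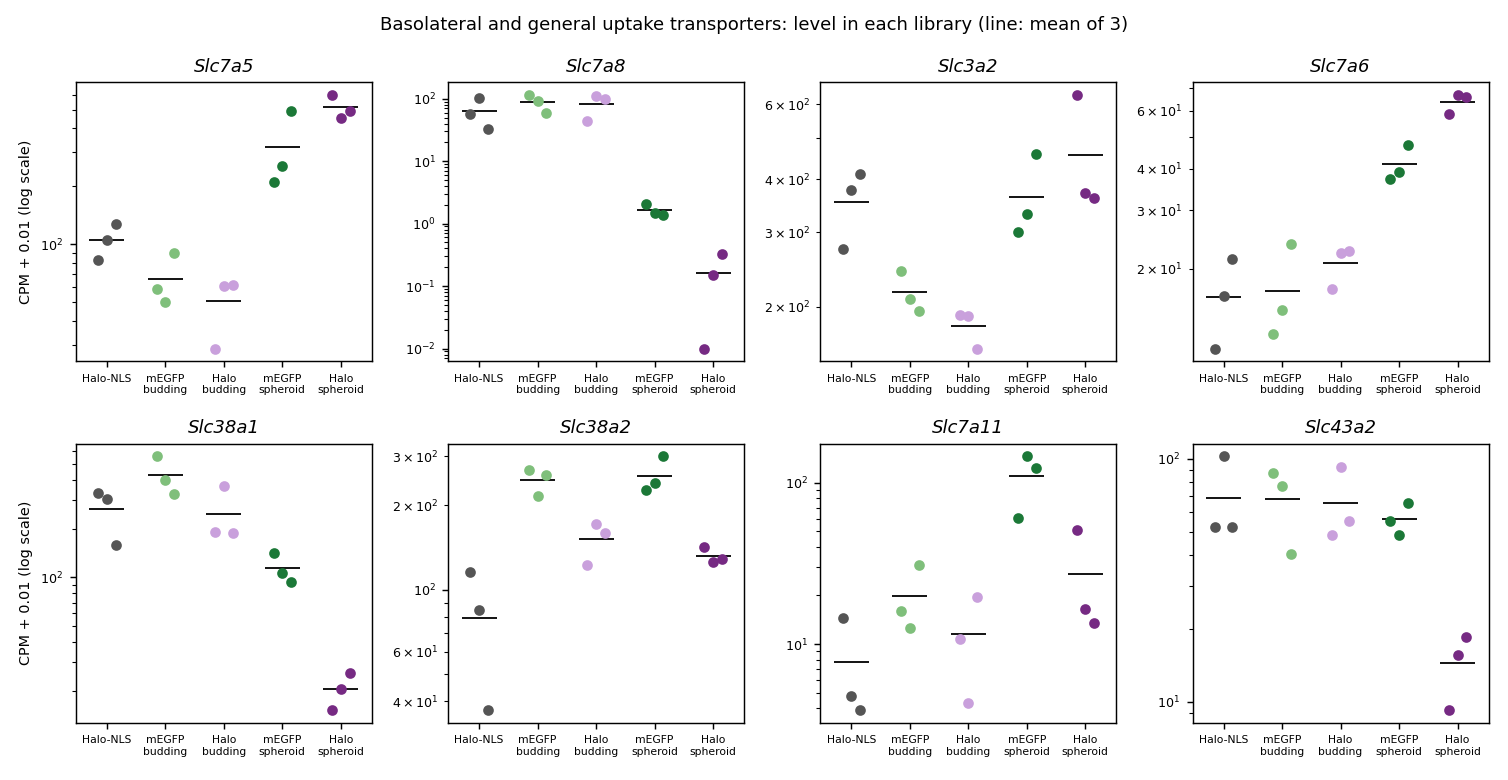
Level of 8 basolateral and general uptake transporters in each library (points, CPM + 0.01 on a log scale whose range differs between panels), with the mean of 3 libraries as a line. Slc7a5 and Slc7a6 are highest in both spheroid conditions, Slc7a8 and Slc38a1 are lowest there, and Slc43a2 is low in SOX9-Halo_spheroid.

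Among the general uptake carriers, 10 of 12 were tested, and 3 were called up and 2 down in SOX9-mEGFP_spheroid relative to Halo-NLS, with 1 up and 3 down in SOX9-Halo_spheroid. Over all genes, 15.3% were called up and 12.1% down in SOX9-mEGFP_spheroid and 13.6% up and 15.3% down in SOX9-Halo_spheroid, so on 10 genes the 1 up and the 2 down are near the background. Slc38a1 and Slc38a2 both import glutamine and other small neutral amino acids with sodium. Slc38a1 had 334, 307 and 158 CPM in Halo-NLS, 559, 398 and 329.8 in SOX9-mEGFP_budding and 190.4, 365 and 189 in SOX9-Halo_budding. It had 141, 106 and 93.7 CPM in SOX9-mEGFP_spheroid (log2 fold change -1.92 ± 0.34, adjusted p = 0.00056, relative to SOX9-mEGFP_budding) and 15.2, 20.4 and 25.6 CPM in SOX9-Halo_spheroid (log2 fold change -3.60 ± 0.37, adjusted p = 1.5e-06, relative to SOX9-Halo_budding). The comparison of SOX9-mEGFP_spheroid with Halo-NLS was close to the threshold (log2 fold change -1.23 ± 0.34, adjusted p = 0.0076). It lost its call without Halo-NLS replicate 1 or 2, SOX9-mEGFP_budding replicate 2, SOX9-Halo_budding replicate 3, SOX9-Halo_spheroid replicate 2 or any SOX9-mEGFP_spheroid library, with adjusted p of 0.01 to 0.033.

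Slc38a2, which is known to respond to amino acid shortage, was higher in all SOX9 conditions than in Halo-NLS. It had 116, 84.9 and 37.2 CPM in Halo-NLS, 267, 216 and 256 in SOX9-mEGFP_budding, 123, 172 and 159.7 in SOX9-Halo_budding, 228, 239 and 299 in SOX9-mEGFP_spheroid and 142, 126 and 129 in SOX9-Halo_spheroid. Every SOX9 library lay above every control, and the rise was called in SOX9-mEGFP_budding (log2 fold change 1.64 ± 0.30, adjusted p = 0.0046) and SOX9-mEGFP_spheroid (log2 fold change 1.69 ± 0.31, adjusted p = 0.00043). The call in SOX9-mEGFP_budding ended without Halo-NLS replicate 2 or any library of its own, with adjusted p of 0.011 to 0.019. Without Halo-NLS replicate 1, the rises in SOX9-Halo_budding (log2 fold change 1.31, adjusted p = 0.0052) and SOX9-Halo_spheroid (1.12, adjusted p = 0.0057) were called too. Slc38a1 was 1.48 to 2.18 times the level of Slc38a2 per kilobase in Halo-NLS and 0.0547 to 0.102 of it in SOX9-Halo_spheroid.

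Slc7a11, which exchanges cystine for glutamate and supplies cells with cysteine, rose in SOX9-mEGFP_spheroid to 60.1, 146 and 124 CPM from 14.6, 4.75 and 3.9 in Halo-NLS (log2 fold change 3.82 ± 0.71, adjusted p = 0.00052). Its libraries varied widely within each condition, with 15.9, 12.6 and 30.8 CPM in SOX9-mEGFP_budding, 10.8, 4.32 and 19.5 in SOX9-Halo_budding and 51.0, 16.6 and 13.4 in SOX9-Halo_spheroid. In SOX9-Halo_spheroid the log2 fold change to Halo-NLS was 1.80 ± 0.66 with adjusted p = 0.034. Without Halo-NLS replicate 1 it was 2.65 with adjusted p = 0.0068. The 250 bases before the start of Slc7a11 are shown because they hold a motif of the amino acid response on both strands. Capitals mark TGATGNAA, the core bound by ATF4 with its partners, whose matches begin 66 and 47 bases before the start. This motif was found in 3.45% of all windows and in 4 of the 74 windows of the members, which belonged to Slc6a21, Slc7a11 and Slc7a7.
Slc7a11 (chr3:50443614-50443863, minus strand, GRCm38.p6): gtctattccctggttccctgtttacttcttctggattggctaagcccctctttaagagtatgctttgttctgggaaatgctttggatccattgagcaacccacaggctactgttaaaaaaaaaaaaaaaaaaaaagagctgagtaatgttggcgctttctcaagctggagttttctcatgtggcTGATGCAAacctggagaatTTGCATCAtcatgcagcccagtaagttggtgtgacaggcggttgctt

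Genes of the amino acid response were described beside these. Of 12 genes on that list 11 were tested, and Atf4 itself was not called, with 430.4, 385 and 355 CPM in Halo-NLS, 498, 543 and 364 in SOX9-mEGFP_spheroid and 447, 280.4 and 283 in SOX9-Halo_spheroid. From budding to spheroid, 4 were called up in the SOX9-mEGFP line (Asns, Psat1, Phgdh and Psph, enzymes of asparagine and serine synthesis) and 5 in the SOX9-Halo line (Psat1, Phgdh, Psph, Shmt2 and Sesn2), beside 8.55% and 10.5% of all genes. Aldh18a1, an enzyme of proline synthesis, was called down in the SOX9-mEGFP line. Relative to Halo-NLS, Psat1 was the only one called up, in SOX9-Halo_spheroid (log2 fold change 1.18 ± 0.21, adjusted p = 0.00029), and Aldh18a1 was called down in both spheroid conditions. Over all genes, 13.6% were called up and 15.3% down in SOX9-Halo_spheroid, and 12.1% down in SOX9-mEGFP_spheroid. In the budding organoids Psph was called down in both lines, with Psat1 and Shmt2 in addition in SOX9-Halo_budding. The shares of all genes called down were 0.763% in SOX9-mEGFP_budding and 1.26% in SOX9-Halo_budding. Summed over the 12, the level was 2644 to 3274 CPM in Halo-NLS, 1732 to 2127 in SOX9-mEGFP_budding, 1282 to 1853 in SOX9-Halo_budding, 2543 to 2834 in SOX9-mEGFP_spheroid and 2258 to 3302 in SOX9-Halo_spheroid. Both spheroid ranges overlapped with the controls, and all budding libraries lay below them. Aldh18a1 was the largest part of the control sum, at 783.5 to 1377 CPM, and fell to 182.5 to 196.8 CPM in SOX9-mEGFP_spheroid. Asns, Chac1, Trib3, Psat1 and Mthfd2 lay above all controls in every library of that condition, though none was called. Atf4, Phgdh, Psph, Shmt2 and Sesn2 overlapped with the controls. The sum without Aldh18a1 was not computed, so the overlap does not place the other genes at the control level.

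Other carriers of this group changed less or were scarce. Slc1a5 had 154, 244 and 283 CPM in Halo-NLS, 269, 291 and 364 in SOX9-mEGFP_spheroid and 176, 177 and 199.6 in SOX9-Halo_spheroid and was not called in any comparison, nor was Slc7a1, a carrier of basic amino acids. Slc1a4, which carries alanine, serine and cysteine, fell in SOX9-Halo_spheroid to 50.7, 26.6 and 23.4 CPM from 51.8, 78.8 and 90.2 in Halo-NLS (log2 fold change -1.13 ± 0.32, adjusted p = 0.0081). That call ended without Halo-NLS replicate 2 or 3, SOX9-mEGFP_budding replicate 1, SOX9-Halo_budding replicate 3, SOX9-mEGFP_spheroid replicate 1 or 2 or SOX9-Halo_spheroid replicate 2 or 3 (adjusted p of 0.01 to 0.04). Slc7a2, another carrier of basic amino acids, had 2.42, 2.09 and 3.07 CPM in Halo-NLS, 0.264, 0.119 and 0.227 in SOX9-mEGFP_spheroid (log2 fold change -3.60 ± 0.52, adjusted p = 6.8e-05) and 0.0706, 0 and 0 in SOX9-Halo_spheroid, 127-fold (95% counting interval 34.7 to 1055) lower than the controls.

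Of 6 lysosomal members, 4 were tested. Slc36a4, a carrier of proline and tryptophan (chr9:15620817-15654830, plus strand), was near 0 in the controls and present in every SOX9 library. It had 0.0389, 0 and 0 CPM in Halo-NLS, where a single count was found over all 3 libraries. It had 1.74, 1.49 and 1.3 CPM in SOX9-mEGFP_budding, 0.664, 0.957 and 0.959 in SOX9-Halo_budding, 6.11, 6.54 and 8.0 in SOX9-mEGFP_spheroid and 2.22, 1.69 and 2.23 in SOX9-Halo_spheroid. Against that single count, the pooled counts were higher by 120.4-fold (95% counting interval 21.3 to 4786), 69.1-fold (12.1 to 2757), 561-fold (100.3 to 22170.0) and 166-fold (29.5 to 6601), in that order, so the size of the rise is known only within wide limits.

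Slc36a4 also rose from budding to spheroid in the SOX9-mEGFP line (log2 fold change 2.19 ± 0.30, adjusted p = 5.7e-05), and SOX9-Halo_spheroid lay below SOX9-mEGFP_spheroid (log2 fold change -1.75 ± 0.29, adjusted p = 0.0004). The rise in the SOX9-Halo line (log2 fold change 1.25 ± 0.30, adjusted p = 0.0037) was not called by edgeR in the 6 libraries of that line alone. There the adjusted p was 0.012 without a block and 0.017 with the replicate number as a block. It also ended without the low-count filter (adjusted p = 0.015), without SOX9-Halo_budding replicate 1 (1.09, adjusted p = 0.025) or SOX9-Halo_spheroid replicate 1 (1.20, adjusted p = 0.013) or 3 (1.13, adjusted p = 0.022). The call in SOX9-Halo_budding against Halo-NLS ended when edgeR was fitted to the compared libraries alone (adjusted p = 0.017). The other 3 lysosomal members were not called by edgeR over all libraries. Slc38a9, the arginine sensor of the lysosome, ranged from 8.20 to 17.4 CPM over all libraries. Slc38a7, which exports glutamine and asparagine, was at 53.2, 73.7 and 62.8 CPM in Halo-NLS and 28.0, 30.9 and 36.9 in SOX9-mEGFP_spheroid (log2 fold change -0.99 ± 0.23, adjusted p = 0.0032), just under the 2-fold limit. It was called down there under 6 alternatives, DESeq2 among them (-1.02, adjusted p = 0.00051), and in SOX9-Halo_budding under 3, again with DESeq2 (-1.02, adjusted p = 0.0015).

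Among the carriers of neurotransmitters and related compounds, 8 of 18 were tested. Slc6a4, the serotonin transporter, which is also expressed by enterocytes, had 43.1, 53.9 and 45.6 CPM in Halo-NLS, 45.1, 39.2 and 20.3 in SOX9-mEGFP_budding and 39.6, 39.1 and 30.8 in SOX9-Halo_budding. It fell to 0.688, 0.597 and 0.114 CPM in SOX9-mEGFP_spheroid (log2 fold change -6.21 ± 0.49, adjusted p = 4.2e-07, relative to SOX9-mEGFP_budding). It was at 0.106, 0.0282 and 0.0537 CPM in SOX9-Halo_spheroid, 618-fold (95% counting interval 284 to 1686) lower than SOX9-Halo_budding. The dopamine transporter Slc6a3 was much scarcer and behaved alike, from 3.5, 5.09 and 2.66 CPM in Halo-NLS to 0.0529, 0.239 and 0.0284 in SOX9-mEGFP_spheroid and no count in SOX9-Halo_spheroid. Markers of enteroendocrine cells, the source of gut serotonin, were at 0.454 to 2.25 CPM in SOX9-mEGFP_spheroid and 0.197 to 0.353 CPM in SOX9-Halo_spheroid when summed over Chga, Chgb and Neurod1, against 290.2 to 912 CPM in Halo-NLS. The creatine carrier Slc6a8 was not called, with 98.6, 150.1 and 109 CPM in Halo-NLS and 202, 191 and 184 in SOX9-Halo_spheroid (log2 fold change 0.69 ± 0.26, adjusted p = 0.038).

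Slc6a7, a proline carrier known from neurons, was higher than Halo-NLS in 3 of the 4 SOX9 conditions and without a count in SOX9-Halo_spheroid. It had 1.28, 2.39 and 0.899 CPM in Halo-NLS, 5.65, 4.58 and 6.87 in SOX9-mEGFP_budding and 13.1, 10.3 and 14.4 in SOX9-Halo_budding. It had 3.99, 3.52 and 3.97 CPM in SOX9-mEGFP_spheroid and no count in SOX9-Halo_spheroid, at least 139.8-fold lower than SOX9-Halo_budding. The 3 ranges above the control did not overlap with Halo-NLS. The rise was called in SOX9-Halo_budding (log2 fold change 3.04 ± 0.35, adjusted p = 0.00035), in SOX9-mEGFP_budding (log2 fold change 1.90 ± 0.34, adjusted p = 0.0049) and in SOX9-mEGFP_spheroid (log2 fold change 1.32 ± 0.34, adjusted p = 0.0059). The call in SOX9-mEGFP_budding ended without Halo-NLS replicate 3 or SOX9-mEGFP_budding replicate 1 or 3 (log2 fold change 1.62 to 1.90, adjusted p 0.015 to 0.019). That in SOX9-mEGFP_spheroid ended without Halo-NLS replicate 1 or 3 or any of its own libraries (1.05 to 1.36, adjusted p 0.016 to 0.022). The call in SOX9-Halo_budding held in every fit that left out 1 library. When edgeR was fitted to the compared libraries alone, all of these calls ended. The adjusted p was then 0.024 in SOX9-Halo_budding, 0.049 in SOX9-mEGFP_budding and 0.028 in SOX9-mEGFP_spheroid.

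Slc6a7 lies 4600 bases downstream of Cdx1, a transcription factor of the intestine, on the same strand. Cdx1 had 288, 393 and 418 CPM in Halo-NLS, 166, 221 and 216 in SOX9-mEGFP_budding, 119, 160.3 and 105 in SOX9-Halo_budding, 7.75, 2.66 and 2.04 in SOX9-mEGFP_spheroid and 0.0706, 0.0846 and 0.349 in SOX9-Halo_spheroid. Both neighbours were lowest in SOX9-Halo_spheroid, but Cdx1 was highest in Halo-NLS, where Slc6a7 was low. Markers of glia and neurons (S100b and Elavl4) summed to 0.936 to 1.87 CPM in Halo-NLS, 2.65 to 9.70 in SOX9-mEGFP_budding, 19.0 to 34.2 in SOX9-Halo_budding, 11.6 to 37.1 in SOX9-mEGFP_spheroid and 0.268 to 0.882 in SOX9-Halo_spheroid. Most of this was S100b except in Halo-NLS replicate 3, while Elavl4 stayed below 1 CPM on average in every condition and was at 0 in all spheroid libraries. The part of neighbouring transcription or of other cell types in the level of Slc6a7 was not tested.

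**Figure D4:**
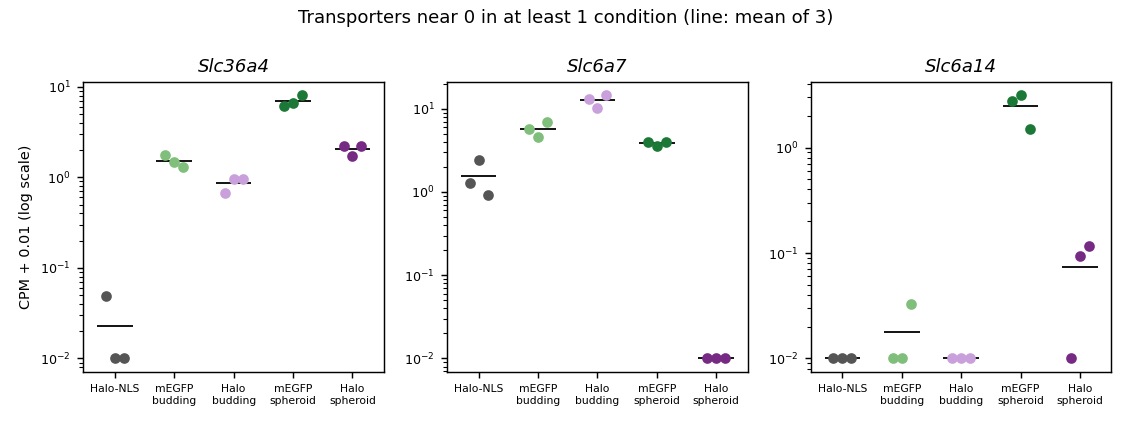
Level of Slc36a4, Slc6a7 and Slc6a14 in each library (points, CPM + 0.01 on a log scale), with the mean of 3 libraries as a line. Points at 0.01 are libraries without a count, as for Slc6a7 in all 3 SOX9-Halo_spheroid libraries and Slc6a14 in all 3 Halo-NLS libraries.

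By family, members called down in SOX9-Halo_spheroid relative to Halo-NLS made up 6 of 10 tested Slc6 genes, 4 of 11 Slc7, 2 of 8 Slc38, 1 of 5 Slc1, 1 of 3 Slc15, 1 of 2 Slc3 and 1 of 2 Slc43 genes. Neither of the 2 tested Slc36 genes was called down there. With 15.3% of all genes called down, families with 1 called gene of 5 or 2 of 8 are near the background, and the smaller families are too few to read. Members called up were 2 Slc7 genes, 1 Slc1 gene and 1 Slc36 gene, beside 13.6% of all genes. In SOX9-mEGFP_spheroid, 4 Slc6, 4 Slc7, 2 Slc38, 1 Slc15 and 1 Slc3 genes were called down, and 3 Slc7, 2 Slc6, 1 Slc1, 1 Slc36 and 1 Slc38 genes were called up, beside 12.1% and 15.3% of all genes. The Slc7 family thus held members that rose and members that fell in both spheroid conditions.

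Outside these roles, Slc7a15 and Slc38a11 were called down in both spheroid conditions. Slc7a15 had 6.62, 7.11 and 7.42 CPM in Halo-NLS, 0.608, 0.239 and 0.17 in SOX9-mEGFP_spheroid (log2 fold change -4.35 ± 0.52, adjusted p = 1.1e-05) and 0, 0.0282 and 0.0537 in SOX9-Halo_spheroid. Slc38a11 had about 1 CPM in Halo-NLS (1.04 ± 0.347 CPM, mean ± SD, n = 3) and was 36.6-fold (95% counting interval 12.1 to 181) lower in SOX9-mEGFP_spheroid and 34.7-fold (11.5 to 172) lower in SOX9-Halo_spheroid. By edgeR over all libraries, 19 of the 45 tested rows were not called in any pairwise comparison. Of these, 11 were not called under any alternative either, among them Slc1a5, Slc7a1, Slc7a4, Slc7a7, Slc15a4 and Slc38a9. The other 8 were each called under at least 1 alternative (Slc1a3, Slc6a8, Slc6a9, Slc15a2, Slc36a1, Slc38a6, Slc38a7 and Slc38a10), and 3 of them by DESeq2 (Slc1a3, Slc36a1 and Slc38a7).

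The lines with SOX9-Halo and SOX9-mEGFP were compared next. Between the budding lines no member was called in either direction by edgeR or DESeq2. By edgeR, 0.29% of all genes were called up and 0.165% down in SOX9-Halo_budding. At the looser limit of an unadjusted p under 0.05 there were 7 of the 45 (Slc6a19, Slc38a2, Slc15a2, Slc38a1, Slc1a1, Slc36a4 and Slc6a7). Their lowest adjusted p was 0.16, and the share of all genes at this looser limit was not computed. Between the spheroids, 14 members were called down in SOX9-Halo_spheroid, 31.1% of the 45 against 9.58% of all genes, and none was called up, against 3.59%. Without SOX9-Halo_spheroid replicate 2, 8 were called down, beside 1244 of 18262 genes. The 14 were Slc1a4, Slc3a1, Slc6a4, Slc6a7, Slc6a14, Slc6a19, Slc7a8, Slc7a9, Slc7a15, Slc15a1, Slc36a4, Slc38a1, Slc43a1 and Slc43a2. For Slc3a1 the log2 fold change was -6.57 ± 0.53, adjusted p = 4.7e-07. Slc7a9 was 339-fold (95% counting interval 132 to 1245) lower and Slc15a1 68.0-fold (22.9 to 332) lower, and Slc6a7, with no count in SOX9-Halo_spheroid, at least 42.4-fold. The calls of Slc6a19 (log2 fold change -2.72 ± 0.54, adjusted p = 0.0017) and Slc7a8 (log2 fold change -3.28 ± 0.67, adjusted p = 0.002) both ended without SOX9-Halo_spheroid replicate 2, at -2.39 and -3.18 with adjusted p = 0.013 and 0.014. That of Slc1a4 (log2 fold change -1.35 ± 0.32, adjusted p = 0.0054) ended without SOX9-Halo_spheroid replicate 2 or 3 or any SOX9-mEGFP_spheroid library (-1.42 to -1.16, adjusted p 0.012 to 0.034). That of Slc6a4 (log2 fold change -2.89 ± 0.67, adjusted p = 0.0048) ended without SOX9-mEGFP_spheroid replicate 1 or 2 or SOX9-Halo_spheroid replicate 2 or 3 (-2.82 to -2.50, adjusted p 0.02 to 0.031). The spheroid lines differ in the tag, in the histone transgene, in time in culture and in how far the round shape had advanced, with SOX9-Halo_spheroid the later on both counts per the study, and these cannot be told apart here or in the difference between the changes of both lines.

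Whether the change from budding to spheroid itself differed between the lines was tested as a difference of differences, SOX9-Halo minus SOX9-mEGFP. Slc3a1, Slc6a7, Slc6a19, Slc7a9 and Slc15a1 were called lower, against 5.58% of all genes, and Slc1a1 was called higher, against 1.81%. On the log2 scale the difference was -6.51 ± 0.65 for Slc3a1, -8.70 ± 0.79 for Slc7a9, -6.61 ± 0.70 for Slc15a1 and -3.71 ± 0.67 for Slc6a19. That of Slc6a7 was -11.15 ± 0.80. SOX9-Halo_spheroid held no count of Slc6a7 and at most 3 counts of Slc7a9 and Slc15a1 in any library, so the size of these values depends on how the fit treats counts near 0. For Slc1a1 it was 1.88 ± 0.43 (adjusted p = 0.0088), and it lost its call without any library other than Halo-NLS replicate 1 or 3 or SOX9-mEGFP_budding replicate 3 (1.39 to 2.03, adjusted p 0.01 to 0.029).

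**Figure D5:**
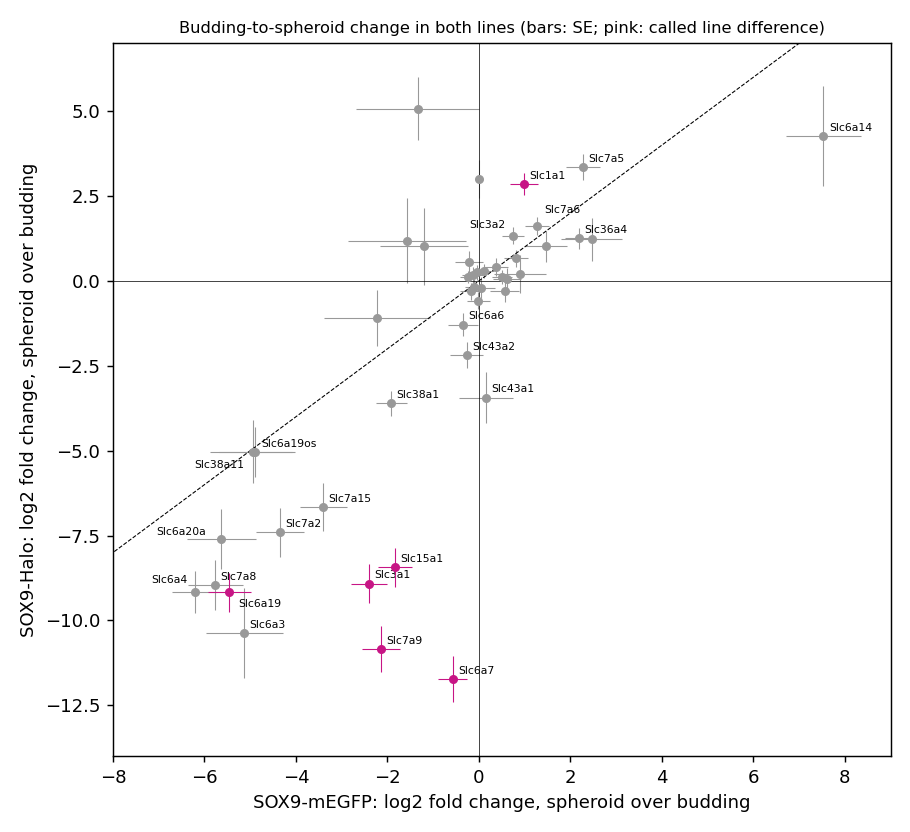
Log2 fold change from budding to spheroid in the SOX9-mEGFP line (horizontal axis) and the SOX9-Halo line (vertical axis) for the 45 tested rows, with SE as bars and the line of equal change dashed. Pink points are the 6 genes with a called difference between the lines, and named grey points were called in at least 1 line. Slc3a1, Slc7a9, Slc15a1 and Slc6a7 lie far below the dashed line.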

How the data were processed

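RNA-seq counts per gene of 15 libraries were used as deposited. Per the methods and labels, the authors made these counts from paired-end poly-A libraries: cutadapt 4.5 trimmed the reads, STAR placed them on mm39 (reads with a single best place only), and HTSeq 2.0.2 assigned them to Ensembl genes in union mode without strand. The deposited comparison tables (fold changes and p-values) and table of normalised values were not used.

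Counts were fitted with edgeR 4.0.16 (quasi-likelihood, TMM scaling, filterByExpr by condition, R 4.3.3) over all 15 libraries. P-values were adjusted over 17560 genes, with the thresholds of the study. Rows without a gene were left out. The SE is the absolute log2 fold change over the square root of F. Where a condition had no count, a fold is a bound against 3 counts per library (0.0696 to 0.117 CPM). Where it had at most 3 counts in every library, the ratio of pooled counts is given with its exact 95% interval (Clopper-Pearson, on the share of the counts). Both cover counting error only. Lengths were unions of GENCODE exons. Scripts were tested on simulated counts.

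Named members were the 20 most abundant per kilobase, the 5 called members with the largest rise and fall in each comparison, and members with a textbook part in intestinal uptake. Slc15a2, Slc15a4, Slc38a9, Slc38a11, Slc43a1, Slc6a21, Slc7a2 and Slc7a15 fall outside that rule and were chosen after their values were seen. The members and lists were chosen with earlier results of these data known. Some genes of the peptidase and glial lists are not reported here.

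Replicate numbers come from the labels. Over 9017 genes, same-numbered SOX9-Halo_budding and SOX9-Halo_spheroid libraries deviated together from their group means (correlations of 0.477, 0.311 and 0.439), so the numbers may pair these samples. No other compared pair of conditions had all 3 correlations above 0.1. SOX9-mEGFP_budding and SOX9-Halo_spheroid, which are different lines and were not compared, did (0.400, 0.150 and 0.395). The correlations alone therefore do not establish pairing. Alternatives were RLE scaling, library sizes alone, no low-count filter, DESeq2 1.42.0, the compared libraries alone, a replicate block, and leaving out each library.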

Additional observations from a re-analysis of the deposited data

Results flagged for a closer look

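In 6 members the change from budding to spheroid differed between both lines by the interaction test of edgeR. The difference, SOX9-Halo minus SOX9-mEGFP on the log2 scale, was -6.51 for Slc3a1, -8.70 for Slc7a9, -6.61 for Slc15a1, -3.71 for Slc6a19 and -11.15 for Slc6a7, and 1.88 for Slc1a1. The first 5 had fallen further in the SOX9-Halo line, and Slc1a1 had risen further there. Slc6a7 had no count in SOX9-Halo_spheroid, and Slc7a9 and Slc15a1 had at most 3 counts in any of its libraries, so their fitted differences are no bounds. The summed level of 7 enterocyte markers differed between the same spheroids (980.0 to 1353 CPM with SOX9-mEGFP and 102 to 141 CPM with SOX9-Halo), and its part in these differences was not tested.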

How the results depend on the processing

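No result among 288 named combinations of member and comparison reversed, and 73 of 93 calls held under every alternative run. Fitting the compared libraries alone, which leaves fewer samples, gave 1 member up and 0 down for SOX9-mEGFP_budding against Halo-NLS. It gave 0 up for SOX9-Halo_budding against Halo-NLS, 2 up between the spheroids and 0 up for the line difference. Over all genes it called 65 up and 38 down of 15026 in SOX9-mEGFP_budding and only 5 up of 15266 in SOX9-Halo_budding. It called 943 of 15393 up between the spheroids and 379 of 17283 for the line difference. Without the low-count filter, SOX9-Halo_budding had 2 down against Halo-NLS, the spheroid comparison 2 up and the line difference 12 down, beside 424, 799 and 1410 of 52932 genes. DESeq2 gave 1, 1 and 8 for these, beside 426, 761 and 1224 of 52932 genes. With the replicate block over all libraries, SOX9-Halo_budding had 1 down and the spheroid comparison 1 up, beside 306 and 712 of 17560 genes. Apart from the call of Slc36a4 given above, which those libraries alone also lost without a block, the block within the SOX9-Halo libraries changed no call of budding against spheroid from called to not called. Slc36a1 was called higher in SOX9-Halo_spheroid than in SOX9-mEGFP_spheroid under 7 alternatives (log2 fold change 1.12 to 1.41), and Slc7a11 higher in SOX9-mEGFP_spheroid than in SOX9-mEGFP_budding under 9 (2.44 to 2.89).

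Leaving out each library gave 1 to 3 up and 0 to 2 down for SOX9-mEGFP_budding and 2 to 3 up and 0 to 2 down for SOX9-Halo_budding against Halo-NLS, 0 to 1 up and 8 to 14 down between the spheroids (8 without SOX9-Halo_spheroid replicate 2), and 0 to 1 up and 5 to 6 down for the line difference. Of 18132 to 18358 genes, these fits called 143 to 1839 up and 72 to 345 down in SOX9-mEGFP_budding. They called 125 to 1986 up and 60 to 384 down in SOX9-Halo_budding. Between the spheroids 408 to 742 were up and 1244 to 1786 down, and for the line difference 180 to 364 up and 719 to 1036 down. Scaling by library size alone put the median log2 fold change of all genes against Halo-NLS at 0.27 to 0.31, where TMM had it at -0.01 to 0.03. Members with few counts limit the depth at which a fall in SOX9-Halo_spheroid can be sized. The cause of these shifts was not tested.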
